A study of Mus musculus with 12 samples.

Results

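Of the Krüppel-like factors (KLFs) other than Klf9, 10 were followed in the liver transcriptome of mice that ran on a treadmill after a meal. They were the genes whose symbol in the deposited count table is Klf2, Klf3, Klf4, Klf6, Klf10, Klf11, Klf12, Klf13, Klf15 or Klf16, which are 10 of its 17432 genes. All 10 passed the low-count filter. RNA was sequenced from the livers of 12 wild-type C57BL/6J male mice of 8 to 10 weeks, 6 labelled Sedentary and 6 labelled Exercise. Both groups had their meals confined to the daytime for 3 days and were refed at 9:00 on the day of the experiment, and food was withdrawn at 12:00. The Exercise mice then performed a single aerobic run of 3 hours, the Sedentary mice did not run, and livers of both groups were taken at the same time. Livers are mixtures of cells, so a change in cell number and a change in RNA per cell cannot be told apart in any value below.

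KLFs are zinc finger transcription factors that bind GC-rich and CACCC sequences in promoters, and they differ in the cofactors they recruit. Klf10, Klf11, Klf13 and Klf16 bind the corepressor Sin3A, Klf3 and Klf12 bind the corepressor CtBP, and Klf2, Klf4 and Klf6 are mostly activators. Klf15 is best known in the liver, where it takes part in amino acid breakdown and gluconeogenesis and responds to feeding and glucocorticoids. Klf10 was named as a gene induced by TGF-beta and is rhythmic in the liver. Klf2 and Klf4 are known from the endothelium, where blood flow induces them.

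The promoters are shown because the members differ in the short motifs in front of them. The reference table held the start of 8 of the 10 genes and had no entry for Klf10 or Klf16. The sequences are from RefSeq on GRCm38.p6, cover the 250 bases before the start on the strand of the gene, and run 5′ to 3′. Capitals mark a GC box (GGGCGG), an E-box (CACGTG), the core of a cAMP response element (TGACG) or a TATA box (TATAAA), each on either strand, and neighbouring matches can overlap. The Klf15 window is chr6:90462326-90462575 on the plus strand, that of Klf3 chr5:64803271-64803520 on the plus strand and that of Klf13 chr7:63938916-63939165 on the minus strand. That of Klf6 is chr13:5861239-5861488 on the plus strand and that of Klf12 chr14:100149797-100150046 on the minus strand. The Klf12 window lies inside the annotated gene because RefSeq lists a later start than GENCODE. The windows of Klf3 and Klf6 also run past the GENCODE start of their genes (64803388 and 5861482), as do those of Klf2 and Klf11. Klf15, Klf3 and Klf13 are shown as the most abundant members that rose after exercise, and Klf6 and Klf12 as the members without a detected change.
Klf15: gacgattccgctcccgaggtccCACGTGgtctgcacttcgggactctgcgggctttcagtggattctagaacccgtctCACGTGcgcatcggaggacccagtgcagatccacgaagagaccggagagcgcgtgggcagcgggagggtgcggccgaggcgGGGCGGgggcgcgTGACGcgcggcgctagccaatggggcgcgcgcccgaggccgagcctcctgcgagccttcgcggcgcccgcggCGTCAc
Klf3: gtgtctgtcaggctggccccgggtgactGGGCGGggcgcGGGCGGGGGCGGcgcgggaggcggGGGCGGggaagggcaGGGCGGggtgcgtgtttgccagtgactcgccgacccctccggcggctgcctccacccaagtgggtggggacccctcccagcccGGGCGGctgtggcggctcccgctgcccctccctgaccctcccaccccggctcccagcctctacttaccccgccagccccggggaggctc
Klf13: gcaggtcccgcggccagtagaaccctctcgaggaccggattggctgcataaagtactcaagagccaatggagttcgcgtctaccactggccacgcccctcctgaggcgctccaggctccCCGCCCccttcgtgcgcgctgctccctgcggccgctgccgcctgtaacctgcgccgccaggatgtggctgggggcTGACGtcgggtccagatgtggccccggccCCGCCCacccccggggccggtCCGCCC
Klf6: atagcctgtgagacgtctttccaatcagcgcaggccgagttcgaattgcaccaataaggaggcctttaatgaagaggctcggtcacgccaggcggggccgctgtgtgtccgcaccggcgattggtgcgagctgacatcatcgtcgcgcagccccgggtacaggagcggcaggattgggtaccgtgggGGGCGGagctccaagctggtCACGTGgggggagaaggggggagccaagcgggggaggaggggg
Klf12: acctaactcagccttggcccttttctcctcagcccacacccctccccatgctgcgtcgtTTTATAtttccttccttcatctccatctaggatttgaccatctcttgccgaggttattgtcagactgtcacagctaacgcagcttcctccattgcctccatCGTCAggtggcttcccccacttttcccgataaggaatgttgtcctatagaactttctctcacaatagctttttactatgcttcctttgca

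Klf15 had 2 E-boxes, which 0.429% of the 32851 promoters of the table have, and Klf4, Klf6 and Klf11 had 1 E-box each. An E-box was present in 4 of 8 members and in 6.02% of all promoters. Klf3 had 6 GC boxes, the most of the 8 members, and Klf12 was the member without a GC box. In all, 7 of 8 members had a GC box, compared with 32.7% of all promoters. The members other than Klf12 were rich in G and C, with 64.8% to 78.4% in these windows, whereas Klf12 had 48.0% and the median of all promoters was 52.4%. CACCC was found in 5 of 8 members and in 52.0% of all promoters, and TGACG in 5 of 8 members and in 17.8%. The complete cAMP response element TGACGTCA, the forkhead site GTAAACA, a glucocorticoid receptor palindrome, a MEF2 site and a serum response element were found in 0 of 8 members. They were found in 1.55%, 3.17%, 0.00913%, 0.14% and 0.0609% of all promoters. The forkhead site, the glucocorticoid receptor palindrome, the MEF2 site and the serum response element were each searched in 1 fixed form, so other forms were not counted. The palindrome is so rare among all promoters that 0 of 8 says little about it. The Klf2 window holds another form of the MEF2 site, and the Klf4 window holds another form of the forkhead site (ATAAACA). The 0 of 8 for these sites thus applies to the searched sequences only. How common the other forms are among all promoters was not tested. Klf6, without a detected change, had 1 E-box and 1 GC box as well.

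**Figure D1:**
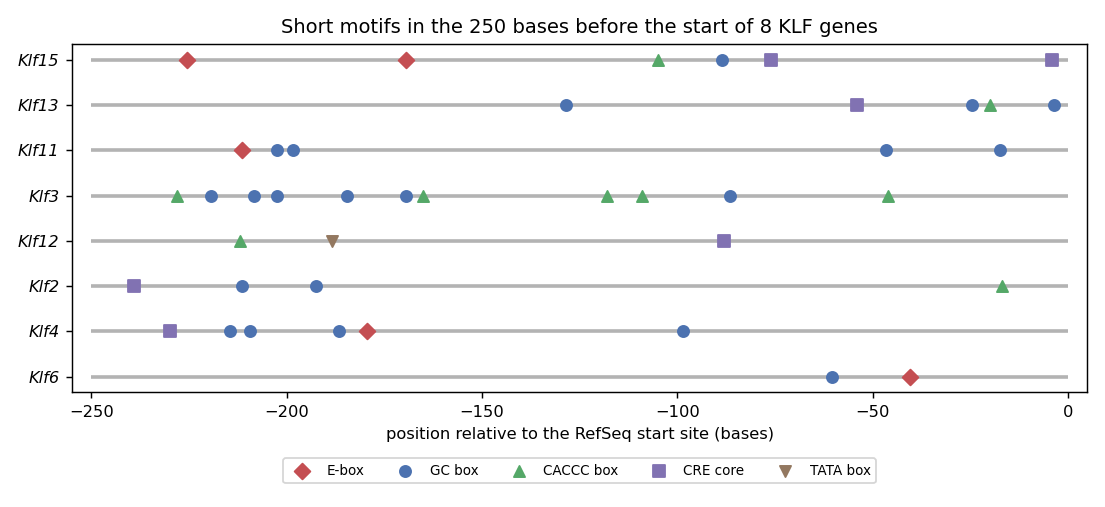
Positions of short motifs (symbols, centre of each match) in the 250 bases before the start site of 8 KLF genes, with distance from the start site in bases on the x axis and 1 line for each gene. Klf15 carries 2 E-boxes far from the start, Klf3 carries 6 GC boxes, and Klf12 carries no GC box.

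Most of the 10 KLF genes followed here rose after exercise. Of the 10 members, 7 rose and Klf10 fell, judged by the quasi-likelihood test of edgeR with a threshold of 0.05 on the adjusted p, whereas no change of Klf6 and Klf12 was detected. Over all 12344 genes tested, 42.4% passed this threshold, 21.1% higher and 21.3% lower after exercise. With library size alone as the scaling, 32.1% of all calls were higher instead of 49.8%, and the same number of members was called, 7 higher and 1 lower. The median log2 fold change was 0.75 over the 10 members, compared with -0.003 over all genes tested. The members were chosen with earlier results of these data known. They leave out Klf1 and Klf7, which were tested and showed no detected change (log2 fold changes -0.26 and 0.03). In 6 members, all higher after exercise, the groups of mice did not overlap. Of all genes tested, 22.3% did not overlap, and 11.7% were higher without overlap. The members summed to 314 ± 38.9 CPM (counts relative to the library size, corrected by TMM factors, SD, n = 6) in Sedentary livers and to 580.5 ± 21.9 CPM (SD, n = 6) in Exercise livers. Klf15 made up 47.6% of this sum in Sedentary and 58.1% in Exercise livers. Libraries held 18745379 to 19324461 counts, and depth limits the scarce members most, with 9 to 125 counts in a library for Klf4, Klf6 and Klf16. The labels name no batch.

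**Figure D2:**
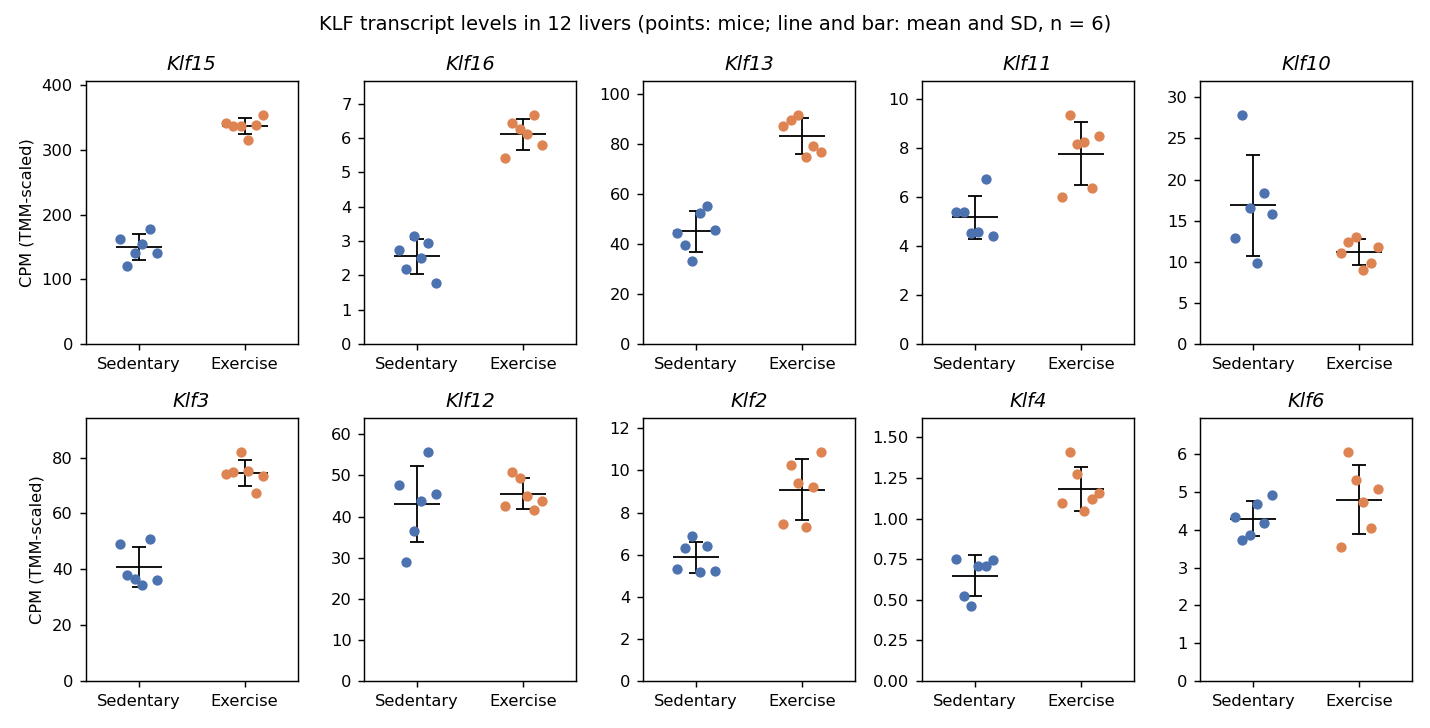
Levels of the 10 KLF genes in CPM (y axes, each starting at 0) in 6 Sedentary and 6 Exercise livers, with a point for each mouse, spread sideways by replicate number, and the mean and SD in black. Exercise livers sit above all Sedentary livers for Klf15, Klf16, Klf13, Klf3, Klf2 and Klf4, and Klf10 has a Sedentary liver at 27.8 CPM above the rest.

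Klf15 (gene ID 66277, chromosome 6 of GRCm38, 90462576 to 90475238) was the most abundant member. Its lowest, median and highest levels were 120.4, 148 and 178 CPM in Sedentary livers and 315, 338 and 353 CPM in Exercise livers. The lowest Exercise liver was thus far above the highest Sedentary liver, and the Exercise livers lay closer to each other. The mean rose from 149 ± 20.03 to 337 ± 12.4 CPM (SD, n = 6), which is 2.26 times the Sedentary mean. This is a log2 fold change of 1.17 with a standard error of 0.077 (edgeR adjusted p = 8.91e-09), and Klf15 ranked 13 by p among all genes tested. The two-sided exact permutation test over 924 relabellings gave p = 0.00216, the smallest it can give. Klf15 is abundant in heart and skeletal muscle as well, and of 9 markers of these tissues the 6 tested all fell after exercise in edgeR. In DESeq2 3 were called lower, where markers without an adjusted p were not counted. The summed level of the 9 markers was 12.4 to 26.7 CPM in Sedentary and 0.579 to 13.5 CPM in Exercise livers. The highest of the Exercise livers in these markers was Exercise replicate 1. Their part in the Klf15 result was not tested.

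Among the Sin3A-binding members, 3 of 4 rose and 1 fell. Klf16 (gene ID 118445, chromosome 10, 80567124 to 80577321), a little-studied repressor, had the highest log2 fold change of the 10 members in this fit. Its lead over Klf15 was smaller than its standard error, and on log2(FPKM + 0.1) with limma Klf15 came first (1.14 against 1.11). Its levels were 1.79, 2.63 and 3.16 CPM (lowest, median and highest) in Sedentary and 5.41, 6.18 and 6.66 CPM in Exercise livers. The groups did not overlap, although the gene is scarce, with 36 to 62 counts in a Sedentary library and 99 to 125 in an Exercise library. Klf16 rose 2.39 times (log2 fold change 1.26, standard error 0.12, edgeR adjusted p = 6e-07).

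Klf13 (gene ID 50794, chromosome 7, 63886351 to 63938915), which is known from T lymphocytes and heart development, had 33.3, 45.0 and 55.2 CPM in Sedentary and 74.9, 83.2 and 91.5 CPM in Exercise livers. It rose without overlap to 1.85 times the Sedentary mean (log2 fold change 0.88, standard error 0.1, edgeR adjusted p = 7.12e-06). Gm27252 and E030018B13Rik overlap Klf13 on the opposite strand. E030018B13Rik was counted as a gene of its own, with 636 counts over all libraries together, beside 654 to 1717 counts of Klf13 in a single library. Gm27252 has no counts of its own. Whether reads were counted by strand is not given in the sources used here, so reads in the overlaps could be shared.

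Klf11 (gene ID 194655, chromosome 12, 24651274 to 24662789), a relative of Klf10 that binds the insulin gene in beta cells, had 4.42, 4.99 and 6.74 CPM in Sedentary and 6.01, 8.21 and 9.34 CPM in Exercise livers. The groups overlapped, with 4 of 6 Exercise livers above all Sedentary livers. The mean rose from 5.18 ± 0.88 to 7.78 ± 1.3 CPM (SD, n = 6, log2 fold change 0.59, standard error 0.13, edgeR adjusted p = 0.00111, two-sided exact permutation p = 0.00649).

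Klf10 (gene ID 21847, chromosome 15, 38291463 to 38300706), a repressor of gluconeogenic genes, was the only member with a lower mean CPM in Exercise livers. Its levels were 9.83, 16.1 and 27.8 CPM in Sedentary and 8.98, 11.5 and 13.03 CPM in Exercise livers. Sedentary livers spread widely around their mean (16.9 ± 6.14 CPM, SD, n = 6) and reached into the narrower range of the Exercise livers (11.2 ± 1.55 CPM, SD, n = 6). Klf10 fell by 0.59 on the log2 scale (standard error 0.22, edgeR adjusted p = 0.0447, two-sided exact permutation p = 0.0325). This call was close to the threshold: of the 12 fits that each left out 1 liver it passed in 3, with adjusted p from 0.00725 to 0.0915 and log2 fold changes from -0.71 to -0.39. It was lost when any of the Exercise livers or Sedentary replicate 3, 5 or 6 was left out, and the change was smallest without Sedentary replicate 2, the highest liver (-0.39, edgeR adjusted p = 0.0459).

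Of the CtBP-binding members, Klf3 rose and Klf12 showed no detected change. Klf3 (gene ID 16599, chromosome 5, 64803388 to 64832901), a broadly expressed repressor, had 34.3, 37.2 and 50.8 CPM in Sedentary and 67.3, 74.6 and 82.0 CPM in Exercise livers. It rose without overlap to 1.83 times the Sedentary mean (log2 fold change 0.87, standard error 0.093, edgeR adjusted p = 2e-06). Gm20033 overlaps Klf3 on the opposite strand and C230096K16Rik on the same strand, and reads of Klf3 could be shared with them.

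Klf12 (gene ID 16597, chromosome 14, 99870632 to 100284679), first described as a repressor of the AP-2alpha gene, had 29.0, 44.6 and 55.7 CPM in Sedentary and 41.5, 44.4 and 50.8 CPM in Exercise livers, so that the Exercise range lay inside the Sedentary range. The genes 4930517O19Rik and Gm16260 overlap Klf12 on the opposite strand, and reads could be shared with them. The log2 fold change of 0.08 (standard error 0.12, edgeR adjusted p = 0.636, two-sided exact permutation p = 0.5) was smaller than its error, and its sign turned with library size alone as the scaling (-0.009) and without Sedentary replicate 2 (-0.01).

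Among the activators, Klf2 and Klf4 rose. Klf2 (gene ID 16598, chromosome 8, 72319033 to 72321656) had 5.19, 5.80 and 6.88 CPM in Sedentary and 7.32, 9.30 and 10.9 CPM in Exercise livers, without overlap (log2 fold change 0.63, standard error 0.11, edgeR adjusted p = 0.000244). Klf4 (gene ID 16600, chromosome 4, 55527143 to 55532466), a pluripotency factor that also acts in endothelium and epithelia, was the scarcest member, with 9 to 15 counts in a Sedentary and 19 to 27 counts in an Exercise library. Its levels of 0.458, 0.706 and 0.749 CPM in Sedentary and 1.05, 1.14 and 1.41 CPM in Exercise livers did not overlap either (log2 fold change 0.86, standard error 0.19, edgeR adjusted p = 0.00131). At this depth the size of the Klf4 change is known less well than that of the other members that rose, apart from its direction, which was the same in each fit with 1 liver left out (0.78 to 0.91).

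Klf6 (gene ID 23849, chromosome 13, 5861482 to 5870394), which injury induces in liver and stellate cells, had 3.72, 4.27 and 4.91 CPM in Sedentary and 3.55, 4.91 and 6.06 CPM in Exercise livers. All Sedentary livers lay within the Exercise range, and 3 Exercise livers lay above them. The log2 fold change of 0.16 (standard error 0.13, edgeR adjusted p = 0.324, two-sided exact permutation p = 0.268) did not pass the test.

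**Figure D3:**
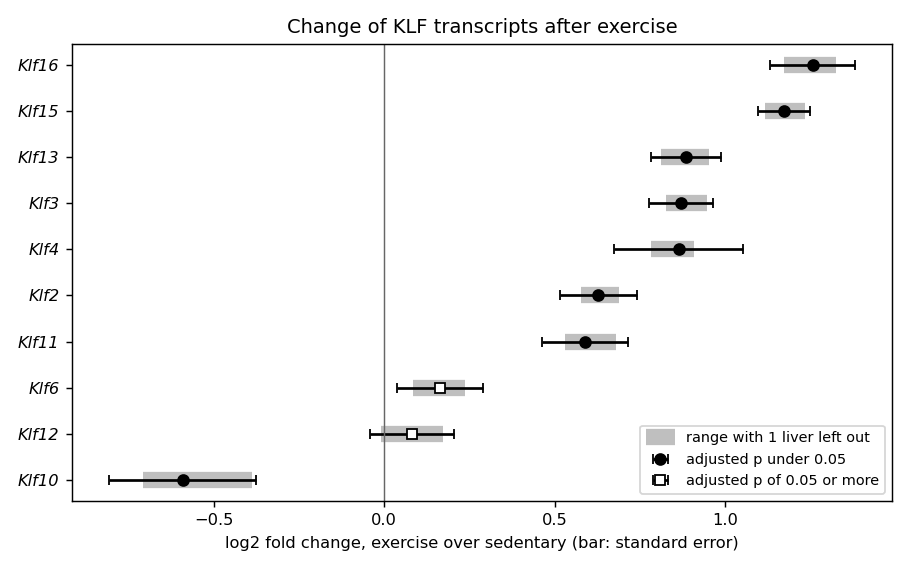
Log2 fold change of each KLF gene, Exercise over Sedentary (x axis), with the standard error as a bar, the range with each of the 12 livers left out in turn in grey, and filled symbols for an adjusted p under 0.05. Klf16 and Klf15 lie furthest to the right at 1.26 and 1.17, Klf6 and Klf12 lie near 0, and Klf10 lies at -0.59 with the widest grey range.

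Klf2 and Klf4 are known from the endothelium, and part of the endothelial markers rose as well. Of 12 endothelial markers tested, 5 rose, 1 fell and 6 did not pass, beside 21.1% higher and 21.3% lower over all genes tested. Flt1, Ramp2, Stab1, Pecam1 and Lyve1 rose by 0.66, 0.54, 0.63, 0.49 and 1.18 on the log2 scale. Kdr fell by 0.19, and Cdh5, Stab2, Clec4g, Fcgr2b, Egfl7 and Eng did not pass. The summed level of the 12 markers was 239 to 314 CPM in Sedentary and 277 to 402 CPM in Exercise livers. The groups overlapped, and the sum was higher in Exercise livers (two-sided exact permutation p = 0.0476). None of the 12 was at 0 in all livers. Their part in the result of Klf2 and Klf4 was not tested. Of the markers of other cells, 0 of 11 Kupffer cell and macrophage markers, 0 of 5 cholangiocyte markers and 0 of 2 tested lymphocyte markers passed edgeR's test, and the number was 0 as well at an unadjusted p under 0.05 and in DESeq2 and limma-voom. Of 10 stellate cell and fibroblast markers 2 fell (Lrat and Des, log2 fold changes -0.59 and -0.40). Hepatocyte markers defined the tissue, with a summed level of 132646 to 174094 CPM in Sedentary and 159199 to 178917 CPM in Exercise livers. These ranges overlapped as well (two-sided exact permutation p = 0.013). Most of the sum was Alb, at 100334 ± 12665 CPM in Sedentary and 118717 ± 7673 CPM in Exercise livers (SD, n = 6), so this p is largely that of 1 gene. Of 9 hepatocyte markers tested, 2 rose (Alb and Hnf4a, log2 fold changes 0.24 and 0.59) and 1 fell (Fabp1, -0.51), and 5 were higher and 1 lower at an unadjusted p under 0.05. Their part in the changes of the KLF genes was not tested.

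Levels of different genes were compared on the authors' FPKM scale, which takes transcript length into account. In Sedentary livers Klf15 stood first at 57.6 ± 7.16 FPKM (SD, n = 6), followed by Klf3 at 12.9 ± 2.68 FPKM and Klf13 at 7.33 ± 1.18 FPKM, and the ranges of these 3 genes did not overlap. Klf10 followed at 5.82 ± 2.25 FPKM, Klf12 at 4.09 ± 0.82 FPKM and Klf2 at 3.44 ± 0.4 FPKM. The range of Klf10 reached those of Klf13, Klf12 and Klf2, so the order of these neighbours was not settled. Klf11, Klf6 and Klf16 lay together between 0.72 and 1.66 FPKM with overlapping ranges, and Klf4 was lowest at 0.223 ± 0.04 FPKM.

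After exercise Klf15 reached 127 ± 6.02 FPKM, Klf3 20.4 ± 1.16 FPKM and Klf13 12.7 ± 1.08 FPKM, still without overlap between them. Behind them the order differed: Klf10 was in place 4 in Sedentary and in place 6 in Exercise livers, at 3.62 ± 0.49 FPKM, whereas Klf2 was in place 6 and then in place 4, at 4.98 ± 0.85 FPKM. Klf16 went from place 9 to place 7. Klf10 and Klf2 overlapped each other in both groups, so their order is one of means.

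**Figure D4:**
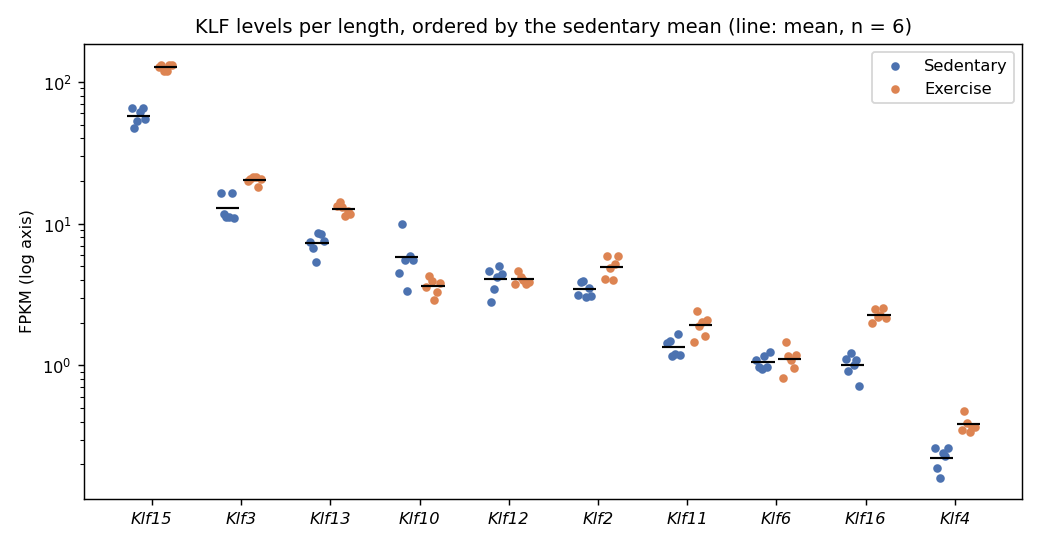
FPKM (log y axis) of the 10 KLF genes in each Sedentary and Exercise liver, ordered by the Sedentary mean, with a short line at each mean. Klf15, Klf3 and Klf13 have the highest means in both groups, the Sedentary livers of Klf10 reach into and past the range of Klf13, and the means of Klf10 and Klf2 change places.

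Counts and FPKM together give the transcript length to which the authors' estimate assigned the reads of a gene, up to a common factor, so that a shift between groups means that reads were assigned to transcripts of another length. Klf15 is annotated with 5 transcripts that begin at different places. Its implied length was 2679 ± 55.7 bases (SD, n = 6) in Sedentary and 2574 ± 16.6 bases (SD, n = 6) in Exercise livers. Each Exercise liver, at 2553 to 2596 bases, lay below each Sedentary liver, at 2612 to 2760 bases. The shift was -0.057 on the log2 scale (two-sided exact permutation p = 0.00216, the smallest possible). Among 10685 genes with at least 20 counts in every library, 1.53% did not overlap in implied length, and percentiles 5 and 95 of the shift were -0.027 and 0.038. Of these genes, 164 had the smallest possible p, Klf15 among them, and adjusted over all of the genes this p was 0.141. No gene could therefore pass the threshold (0 passed, 1079 at an unadjusted p under 0.05). The adjustment thus cannot decide whether Klf15 shifted. The shift is small beside the change of Klf15 itself, which was 2.26 times in CPM.

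Klf3, with 9 annotated transcripts, shifted the other way, from 3277 ± 190 to 3540 ± 105 bases (SD, n = 6, log2 shift 0.11). The groups overlapped (two-sided exact permutation p = 0.0195, adjusted p = 0.337 over the same genes, of which none could pass). The other 8 members shifted by -0.008 to 0.006 (exact permutation p from 0.227 to 0.942, unadjusted).

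**Figure D5:**
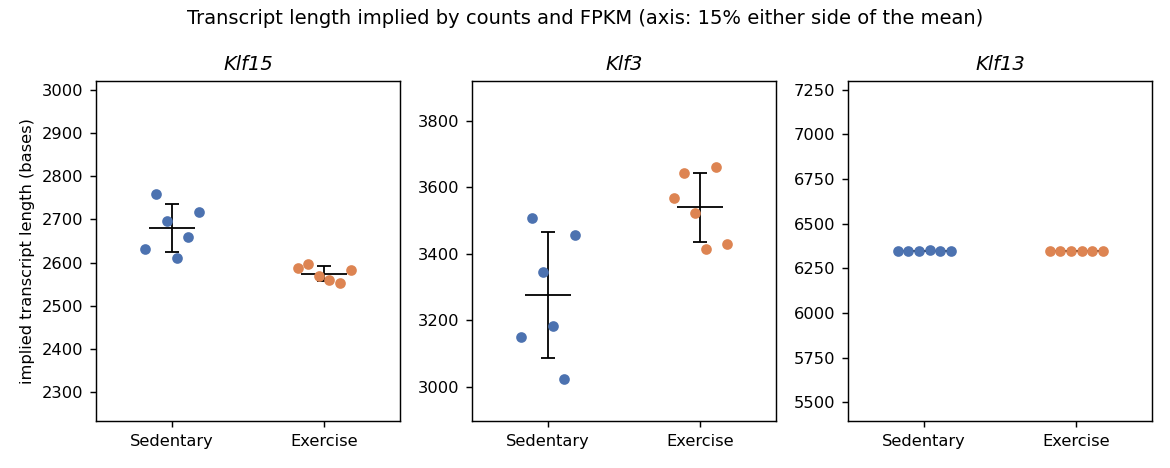
Transcript length in bases implied by counts and FPKM (y axes, 15% either side of each gene's mean and not starting at 0) for Klf15, Klf3 and Klf13 in 6 Sedentary and 6 Exercise livers, with mean and SD. Klf15 is shorter in all Exercise livers, Klf3 overlaps between the groups, and Klf13 stays at one length.

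The rest of the KLF and SP family, which shares the zinc finger type, was measured in the same fit, as were the lists that follow, all to be read beside the 42.4% called over all genes tested. Of 16 listed genes 8 were tested, and 3 rose and 1 fell. Sp1, the general GC-box factor, rose from 18.8 ± 0.93 to 26.7 ± 1.48 CPM (SD, n = 6, log2 fold change 0.51, edgeR adjusted p = 2.64e-06), and Klf9 rose by 0.81 on the log2 scale (edgeR adjusted p = 0.000146). Sp4 rose by 0.31 (edgeR adjusted p = 0.0367), and with library size alone or with Rplp0 as the scaling 2 instead of 3 genes of the list were called higher. Sp5, a Wnt target, fell from 1.58 ± 0.34 to 0.934 ± 0.22 CPM (log2 fold change -0.75, edgeR adjusted p = 0.00509). The list median was 0.08. For the KLF genes Klf1 and Klf7 no change was detected (log2 fold changes -0.26 and 0.03, edgeR adjusted p = 0.218 and 0.818). Klf5, Klf8 and Klf17 had at most 3 counts in a library and were not tested.

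Of 17 corepressors and coactivators of KLF proteins 4 rose and 4 fell, and the list median was 0.02. The share called is close to the 42.4% over all genes tested and is not a result about the cofactors. Sin3a rose from 19.9 ± 1.76 to 28.4 ± 0.82 CPM (SD, n = 6, log2 fold change 0.51, edgeR adjusted p = 4.75e-06), and the histone acetyltransferase gene Ep300 rose by 0.47. The histone deacetylase gene Hdac1 fell by 0.39 on the log2 scale. With library size alone as the scaling, 3 rose and 8 fell. For the CtBP genes Ctbp1 and Ctbp2 no change was detected. Among 7 ubiquitin ligases that act on KLF proteins, Itch rose by 0.63, whereas Siah1a, which targets Klf10 protein, fell by 0.56 and Stub1 fell by 0.21 on the log2 scale. With 1 higher and 2 lower, the share called is again close to that over all genes tested and is not a result about the ligases.

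Of 16 genes that act upstream of KLF genes, 6 rose and 1 fell, with a list median of 0.23. The share called is close to the 42.4% over all genes tested and is not a result about this list. Foxo3 rose from 33.4 ± 3.86 to 72.1 ± 7.13 CPM (SD, n = 6, log2 fold change 1.11, edgeR adjusted p = 2.43e-08), and Foxo1, Foxo4 and Mef2d rose by 1.05, 0.49 and 0.38. The FOXO factors are held inactive by insulin, and MEF2 factors drive Klf2 and Klf4 in endothelium. Of 14 immediate early genes tested 10 rose and 0 fell (11 and 0 at an unadjusted p under 0.05, 10 and 0 in DESeq2), among them Junb, Nr4a1, Fos and Btg2 with log2 fold changes of 1.52, 1.88, 2.22 and 0.95. Klf6 and Klf10, which are often grouped with them, were not among the genes that rose.

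Genes linked to single members moved in both directions. Of 13 genes of amino acid breakdown and gluconeogenesis linked to Klf15, 5 rose and 4 fell. Tat, which starts tyrosine breakdown, rose from 1569 ± 278 to 5563 ± 304 CPM (SD, n = 6, log2 fold change 1.83, edgeR adjusted p = 1.03e-09), and G6pc, which releases glucose, rose by 0.81. Bckdk, the kinase that holds branched-chain amino acid breakdown in check, fell by 0.80, and the hormone gene Fgf21 fell by 1.88 on the log2 scale from a level of 0.989 ± 0.32 CPM. Prodh, a proline oxidase gene and known Klf15 target, which was chosen after its value was seen, fell by 0.34 (edgeR adjusted p = 0.000302). The list median was 0.02.

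Of 8 TGF-beta response genes tested, linked to Klf10 and Klf11, 3 rose and 1 fell. The Smad repressor gene Ski fell by 0.69, and Skil, Tgif1 and Ccn2 rose by 0.39, 0.30 and 1.28 on the log2 scale. Of 10 endothelial genes tested, linked to Klf2 and Klf4, 3 rose and 2 fell. The share called in this list and in the TGF-beta list is near the 42.4% over all genes tested and is not a result about either list. Thbd, an anticoagulant receptor that both factors induce, rose from 2.52 ± 0.37 to 6.99 ± 1.7 CPM (SD, n = 6, log2 fold change 1.47, edgeR adjusted p = 1.31e-06), and the nitric oxide synthase gene Nos3 rose by 0.56. Of the adhesion genes that these factors are known to repress, Icam1 fell by 0.55 and Vcam1 rose by 1.35 on the log2 scale (edgeR adjusted p = 0.0001 and 5.71e-06).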

How the data were processed

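Liver mRNA libraries of 12 mice were sequenced. The submitters' processing notes name Bowtie2 2.3.4.3, RSEM 1.3.1 and mm10, and the annotation, the strand setting and a test for the sequencing are not given in the sources used here. The authors deposited estimated counts, unscaled between libraries (31.3% of values were not whole), and FPKM values, scaled for transcript length and depth. Groups came from the sample titles. Whether the mice were separate is taken from the study, which used 6 males per group. Counts were rounded, filtered (filterByExpr, minimum count 10; 12344 of 17432 genes kept) and tested in edgeR 4.0.16 with R 4.3.3 (TMM, robust quasi-likelihood fit, exercise as the only term, Benjamini-Hochberg over all genes tested, threshold 0.05); the test was tried on simulated counts first. Single genes were also tested by exact permutation of mean log2(CPM + 0.5). Implied length is count over FPKM and library total. No 2 of the 66 library pairs were identical. Gene lists were written by hand, and the members and lists were chosen with earlier results of these data known. All members are named, and of each list the called genes with the smallest p, at most 4, except a gene that is not reported here. Loci are from GENCODE M21. The protein features planned for these factors were not analysed here. Python 3.11.15 with pandas 2.3.3 was used for the rest. Alternatives were other scalings, filters, DESeq2 1.42.0, limma 3.58.1 (voom, and log2(FPKM + 0.1)), a replicate block, a stricter threshold and leaving out livers.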

Additional observations from a re-analysis of the deposited data

How the results depend on the processing

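Of the 10 members, the 7 that rose kept their direction and passed the threshold in every fit in which they were tested, over 11 settings that kept the test threshold and the 12 fits that each left out 1 liver. Klf4 was not tested where at least 10 counts were required in every library. Klf10 kept its direction and was past the threshold in 9 of the 11 settings. Its call was lost with no filter beyond 1 count (log2 fold change -0.59, edgeR adjusted p = 0.0731) and without Exercise replicates 1 and 3 together, a choice made after seeing the data (-0.64, edgeR adjusted p = 0.0978); the number of members called lower was 0 in both, and 0 at an adjusted p under 0.01 in place of 1. Across the fits that left out 1 liver, 7 to 8 members were called, 7 higher in each and 0 to 1 lower. The sign of Klf12 turned with library size alone (-0.0086) and without Sedentary replicate 2, and it ran from -0.010 to 0.17 with 1 liver left out. The cause was not tested.

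The number of genes called over the whole table was 5229 and ran from 4739 to 5222 with 1 liver left out. The labels do not say whether the replicate numbers pair the mice. Of 6 same-numbered pairs, 2 had a correlation of their deviations over 0.1 (range -0.099 to 0.16). Differently numbered pairs were not compared, so pairing was not settled. With the replicate number as a block, 4956 genes and the 8 members were called, 7 higher and 1 lower, and no member's call changed. In implied length, 2 members had an unadjusted p under 0.05 with all livers, and 2 to 3 with 1 liver left out. Depth limits Klf4 most, at 9 to 27 counts in a library.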

Other observations

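Sedentary livers differed among themselves in several members. Sedentary replicate 2 had the lowest level of Klf15 (120.4 CPM), Klf12 (29.0 CPM) and Klf6 (3.72 CPM) and the highest of Klf10 (27.8 CPM). Its implied Klf15 transcript length was the longest of the 12 livers (2760 bases). Sedentary replicate 5 had the highest level of 5 members, among them Klf15 (178 CPM), Klf13 (55.2 CPM) and Klf3 (50.8 CPM). Pck1, the gene of the gluconeogenic enzyme PEPCK, chosen here after its values were seen, was also lowest in Sedentary replicate 2 (474 CPM) and highest in Sedentary replicate 5 (2201 CPM). No correlation was tested over these 6 mice.

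The spread between mice was larger in Sedentary than in Exercise livers in 8 of the 10 members, measured as the coefficient of variation of CPM, and in 59.0% of all genes tested. For Klf15 it was 13.4% in Sedentary and 3.68% in Exercise livers, and for Klf10 36.4% and 13.8%. Klf2 and Klf6 were the exceptions, with 12.5% and 16.0% for Klf2 and 10.7% and 18.8% for Klf6. In 0 of 20 groups of 6 livers did the highest or lowest value stand apart by Dixon's criterion, where chance gives about 1.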
